A study of Mus musculus with 12 samples.

Results

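The interaction of the antibodies to B7-H3 and PD1 was measured gene by gene in whole-tumour RNA. It is the log2 ratio of combination to anti-B7H3 tumours minus the log2 ratio of anti-PD1 to isotype control tumours, so it is 0 where the log2 effects of the antibodies add up. All 12 of the 12 samples entered, as 4 groups of 3. Of 22195 genes in the files, 12 satellite-like genes were left out and 16088 passed a filter on low counts. Tumours were subcutaneous allografts of YUMM 2.1, a mouse melanoma line, in immunocompetent C57BL/6J mice, and RNA was depleted of ribosomal RNA before sequencing. Once tumours reached 20 to 50 mm3, mice received both antibodies (combination), anti-B7H3, anti-PD1 or isotype control IgG (IgG_Control). All groups share the line and the strain, so each result describes 1 tumour model. The labels do not say whether the 3 samples of a group came from separate mice, and p-values then measure only the spread between these samples, which may be technical.

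PD1 is an inhibitory receptor of activated T cells, and its ligands PD-L1 and PD-L2 sit on tumour cells and myeloid cells. B7-H3, the product of Cd276, is a member of the same B7 family of membrane proteins, is found on many tumours and on tumour vessels, and has a receptor that is still debated. Tumour macrophages, which present antigen, make complement and chemokines and remodel matrix, are among the myeloid cells that such antibodies can reach through Fc receptors. In whole-tumour RNA, fewer cells of a type and less RNA per cell cannot be told apart.

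The libraries differed in composition along the groups. Satellite-like genes took 31.4% ± 2.22 of matched reads in combination, 0.145% ± 0.0679 in anti-B7H3, 72.0% ± 2.99 in anti-PD1 and 92.5% ± 1.93 in isotype control libraries (SD, n = 3 each). Reads on olfactory receptor (Olfr) genes, which tumours are not known to use, stood at 0.667 ± 0.0418, 0.0559 ± 0.00497, 5.27 ± 0.243 and 6.97 ± 0.321 per kilobase of coding length in the same order of groups. Reads at that density made up 0.755%, 0.0538%, 7.08% and 17.7% of all reads outside the satellite-like genes. Those other genes held 1340782 to 3918163 reads per library, out of totals of 3593110 to 21298142. This background has an interaction of its own: scaled like the genes, Olfr reads gave a log2 value of 5.56 (3.82 for combination over anti-B7H3 and -1.74 for anti-PD1 over isotype control), and satellite-like genes gave 11.1. A gene is therefore called near background in a group where its reads were under 3 times those expected at the Olfr density. That held for 2918 genes in combination, 2179 in anti-B7H3, 5722 in anti-PD1 and 11579 in isotype control, and 4373 genes were clear of it in all groups. The Olfr density includes Olfr93, which alone held 1130, 22, 4355 and 4930 reads in combination, anti-B7H3, anti-PD1 and isotype control. At the Olfr density it would hold 1.88, 0.158, 14.9 and 19.6, so its weight in that density differs between groups and is largest in combination. Olfr93 was not taken out, so the densities, the 5.56 and the near-background calls rest partly on this gene, and not to the same degree in each group.

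**Figure D1:**
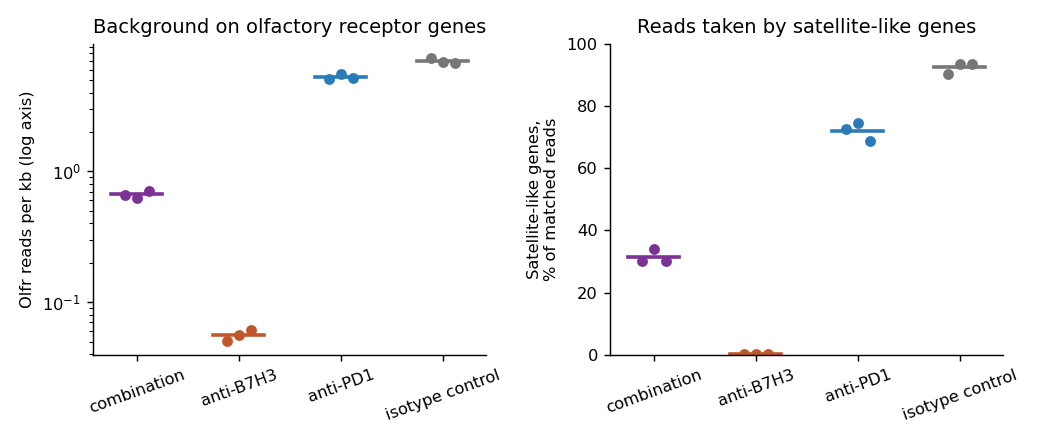
Reads per kilobase of coding length on olfactory receptor genes (left, log axis) and percent of matched reads on 12 satellite-like genes (right) in each of 12 libraries, with bars at the group means. Both measures are lowest in anti-B7H3 and highest in isotype control, with means of 0.0559 and 6.97 reads per kilobase on the left and 0.145% and 92.5% on the right.

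The interaction differed from 0 for 6797 of 16088 genes (42.2%) by edgeR's quasi-likelihood test at a Benjamini-Hochberg adjusted p under 0.05. It was above 0 for 3604 genes (22.4%) and below 0 for 3193 (19.8%). The split went with distance from background. Among the 4373 genes clear of background in all groups, 542 (12.4%) had an interaction above 0 and 1851 (42.3%) below 0, while among the 11715 others the counts were 3062 (26.1%) and 1342 (11.5%). The median log2 interaction was -0.31 in genes clear of background, 0.38 in the others and 0.093 over all genes. Scale factors taken from genes above background on average put that median over all genes at 0.41. They gave 5082 genes above 0 (31.6%) and 1541 below it (9.58%), so 76.7% of calls lay above 0 instead of 53%. The share was 62.2% with DESeq2 size factors and 65.2% with upper quartile scaling. A gene is therefore written as kept where it was called in 1 direction with each of 3 treatments of the counts, namely TMM over all genes tested, TMM over genes above background, and that second scaling with the expected background subtracted. Of the 16088 genes, 1033 (6.42%) were kept above 0 and 1007 (6.26%) below 0.

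The effects behind the interaction were compared next, and their split depended on the treatment of the counts. Over all genes tested, edgeR called 35.9% between combination and anti-B7H3 (21.8% higher, 14.1% lower) and 53.2% between anti-PD1 and isotype control (24.3% higher, 28.9% lower). In the other order it called 56.5% between combination and anti-PD1 and 73.8% between anti-B7H3 and isotype control. Of the 1851 genes clear of background with an interaction below 0, 923 were higher in anti-PD1 than in isotype control and not called between combination and anti-B7H3. Another 498 were higher in anti-PD1 than in isotype control and lower in combination than in anti-B7H3, which is a reversal of direction, and 272 were higher in both contrasts. The remaining genes comprised 119 that were lower in combination only, 37 called in neither contrast and 2 lower in both. Of the same 4373 genes, TMM over genes above background left 942 below addition and 1036 above, with 268 higher in anti-PD1 only, 334 reversals and 247 lower in combination only. With background subtracted as well, 469 were below and 1250 above, with 62 higher in anti-PD1 only, 90 reversals and 273 lower in combination only. Of the 542 with an interaction above 0, 181 were higher in combination than in anti-B7H3 and not called for anti-PD1, and 174 were higher in combination and lower in anti-PD1. Addition was defined on the log2 scale, and on the linear scale of CPM, reads scaled to a common library size, the sign was opposite for 17 of 3604 genes called above 0 and for 4 of 3193 called below 0.

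**Figure D2:**
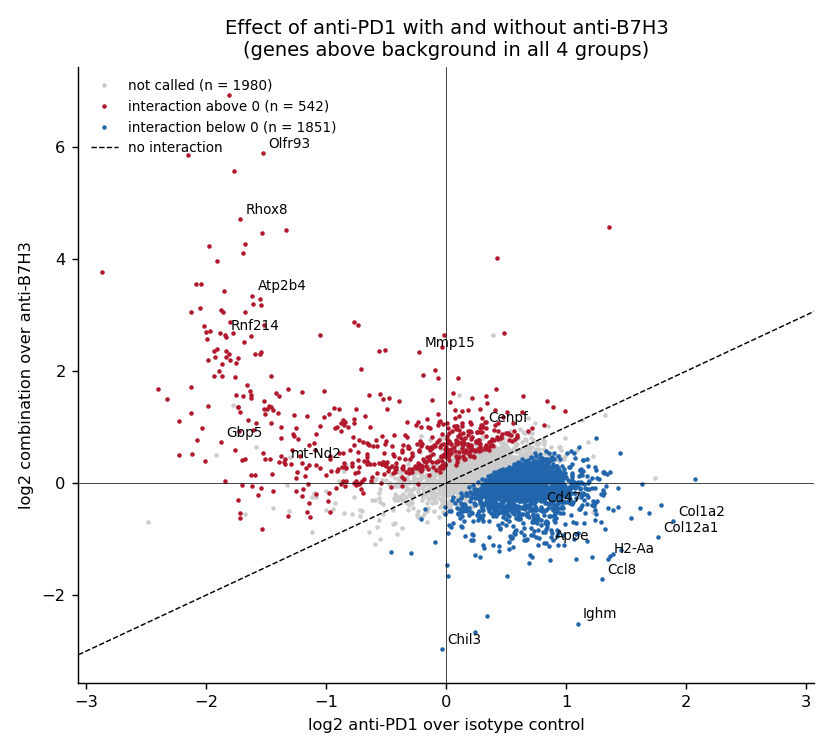
Each point is 1 of 4373 genes clear of background in all 4 groups, with the log2 ratio of anti-PD1 to isotype control on the x axis and that of combination to anti-B7H3 on the y axis. Points on the dashed line have no interaction, and the 1851 genes called below it form a cloud at positive x, while the 542 called above it reach highest at negative x.

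Of the antibody targets and partners, the Sirpa and Cd47 pair, in which the macrophage receptor SIRPA reads the self signal CD47, was furthest below addition together with Pdcd1lg2. Sirpa had 148, 147 and 133 CPM in combination, 286, 287 and 291 in anti-B7H3, 51.2, 55.5 and 55.2 in anti-PD1 and 38.2, 28.6 and 35.5 in isotype control libraries. No groups overlapped, and the log2 interaction was -1.66 ± 0.15 (SE, adjusted p = 1.14e-15, edgeR). Cd47 had 128, 132 and 116 CPM in combination, 164, 164 and 180 in anti-B7H3, 70.0, 73.1 and 73.9 in anti-PD1 and 36.6, 49.0 and 41.3 in isotype control, which gave -1.22 ± 0.15 (adjusted p = 9.92e-11, edgeR). For both, anti-PD1 was above isotype control while combination was below anti-B7H3, and both interactions were kept. Combination stayed below anti-B7H3 with all 3 treatments, but anti-PD1 over isotype control was not called for Sirpa with TMM over genes above background (log2 0.28, adjusted p = 0.105) or with background subtracted (0.28, adjusted p = 0.240), nor for Cd47 with background subtracted (0.23, adjusted p = 0.286). Pdcd1lg2, which encodes PD-L2, stood at 19.7, 18.4 and 20.3 CPM in combination against 70.6, 68.3 and 74.2 in anti-B7H3, but overlapped between anti-PD1 (5.83 to 10.1 CPM) and isotype control (6.51 to 9.59 CPM, near background). Its interaction of -1.91 ± 0.34 was kept (adjusted p = 3.40e-06, edgeR).

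Cd276 itself had 63.6, 65.4 and 57.7 CPM in combination, 43.3, 45.7 and 47.9 in anti-B7H3, 64.8, 53.3 and 47.4 in anti-PD1 and 37.4, 18.4 and 21.1 in isotype control. Combination was above anti-B7H3 and anti-PD1 above isotype control, so the transcript was higher with anti-PD1 in both settings, and the interaction of -0.62 ± 0.21 (adjusted p = 0.0132, edgeR) was lost with TMM over genes above background (-0.30, adjusted p = 0.246). It was also lost without isotype control library 2 (-0.46, adjusted p = 0.0846) or 3 (-0.52, adjusted p = 0.0639). Cd274, which encodes PD-L1, gave -0.69 ± 0.33 and did not pass (adjusted p = 0.0850, edgeR), but did without anti-PD1 library 2 (-0.96, adjusted p = 0.0175). Pdcd1 could not be measured well, with 36, 51, 9 and 7 reads in the 3 libraries of combination, anti-B7H3, anti-PD1 and isotype control together, and anti-PD1 and isotype control were near background. Ctnnb1, which encodes beta-catenin, gave -0.72 ± 0.08 (adjusted p = 2.09e-11, edgeR) and -0.05 (adjusted p = 0.650) once the expected background was subtracted.

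MHC class II genes, whose products present antigen to CD4+ T cells, had the lowest list median with both scalings of the unsubtracted counts. Of 10 tested, 9 were below addition and none above, 8 of the 9 were kept, and the median log2 interaction was -2.30 beside 0.093 for all genes and -0.31 for genes above background on average. The share below, 90%, stands beside 19.8% of all genes tested and 42.3% of genes clear of background. Near background in isotype control were 4 of the 10. With background subtracted the class II median was -1.99, and those of T cell checkpoint receptors, mast cells, adipocytes and plasma cells were lower. H2-Aa, the class II alpha chain, had 590, 576 and 599 CPM in combination, 1491, 1505 and 1507 in anti-B7H3, 227, 213 and 237 in anti-PD1 and 91.1, 77.6 and 96.9 in isotype control libraries. Additive log2 effects would put combination at 3828 CPM. No groups overlapped, anti-PD1 was above isotype control (log2 1.34) and combination was below anti-B7H3 (log2 -1.35), so the interaction was -2.70 ± 0.10 (adjusted p = 7.78e-38, edgeR). H2-Eb1, H2-Ab1 and Cd74, the other chains and the invariant chain that escorts them, gave -2.67, -2.64 and -2.65. The summed level of the 10 genes was 4648 to 4780 CPM in combination, 11087 to 11268 in anti-B7H3, 1924 to 2090 in anti-PD1 and 755 to 889 in isotype control.

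The promoters of H2-Aa and H2-Eb1 are shown because these genes moved together and both hold the Y box of class II promoters, CTGATTGG, in capitals. Each runs 5′ to 3′ from 250 bases before to 50 after the start of the gene, in RefSeq's table for GRCm38.p6, at chr17:34287774-34288073 on the minus strand for H2-Aa and chr17:34305617-34305916 on the plus strand for H2-Eb1. The Y box begins 51 and 62 bases before the start.
H2-Aa: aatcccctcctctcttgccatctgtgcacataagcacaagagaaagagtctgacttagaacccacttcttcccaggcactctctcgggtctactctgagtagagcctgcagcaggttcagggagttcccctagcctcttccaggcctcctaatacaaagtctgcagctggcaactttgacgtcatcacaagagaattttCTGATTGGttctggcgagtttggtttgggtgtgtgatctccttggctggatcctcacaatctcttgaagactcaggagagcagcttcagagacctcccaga
H2-Eb1: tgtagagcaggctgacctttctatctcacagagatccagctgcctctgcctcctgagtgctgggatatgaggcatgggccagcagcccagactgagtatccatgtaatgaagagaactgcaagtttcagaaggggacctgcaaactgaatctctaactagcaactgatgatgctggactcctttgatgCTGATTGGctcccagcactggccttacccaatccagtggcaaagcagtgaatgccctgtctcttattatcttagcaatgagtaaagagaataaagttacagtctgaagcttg

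On either strand, the Y box stood in 2 of the 6 class II genes below addition that the table holds, in 5 of 12 class I genes below addition (H2-K1, H2-D1, Tap1, H2-T23 and H2-Q7) and in 4.70% of 27025 genes with a promoter. The core of the interferon-stimulated response element, GAAA, any 2 bases and GAAA, stood in 5 of 11 interferon gamma genes below addition (Socs1, Gbp2, Gbp7, Irgm1 and Igtp), in 4 of 12 class I genes and in 3.99% of all. The gamma-activated site TTCNNNGAA stood in 3 of those 11 and in 9.55% of all. The Y box was added to the search after the values were seen.

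MHC class I genes and interferon gamma targets were below addition as well, by less. Of 16 class I presentation genes, 14 (87.5%) were below addition and none above, 9 were kept, and the median was -0.99. Isotype control was near background for 8 of the 16. Of all genes tested 19.8% were below, and of genes clear of background 42.3%. H2-K1, a class I heavy chain, had 739, 767 and 764 CPM in combination, 1119, 1109 and 1119 in anti-B7H3, 115, 118 and 137 in anti-PD1 and 56.1, 42.9 and 55.6 in isotype control. No groups overlapped, and the interaction was -1.80 ± 0.12 (adjusted p = 3.05e-22, edgeR). H2-D1 gave -1.86, with the added doubt that near-identical class I copies share reads. Of 22 interferon gamma genes, 14 (63.6%) were below addition, 9 of them kept, and the median was -0.91 (-0.58 with TMM over genes above background). Isotype control was near background for 17 of the 22, and of genes near background in 1 group or more 11.5% were below. Ifi47, an interferon-induced GTPase, had 522 reads in combination, 813 in anti-B7H3, 104 in anti-PD1 and 0 in isotype control. The Olfr density would give it 26.4 reads in isotype control, so that density does not hold for this gene. A fold against that group is a bound that depends on a floor.

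Gbp5 was the 1 interferon gamma gene above addition, at 2.61 ± 0.10 (adjusted p = 6.44e-34, edgeR), with 92.1 to 102 CPM in combination, 58.8 to 59.4 in anti-B7H3, 409 to 488 in anti-PD1 and 1579 to 1821 in isotype control. Its reads moved between transcript models. The model with 1839 bases held 482, 0, 3594 and 5396 reads in combination, anti-B7H3, anti-PD1 and isotype control, in the order of background. The model with 2175 bases held 530, 485, 97 and 9, in another order. The gene total therefore joins opposite patterns, and the part of background in it was not tested.

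Macrophage genes lay below addition. Of 18 identity genes, 14 (77.8%) were below and none above, 10 were kept, and the median was -1.33. Isotype control was near background for 7 of the 18. Of all genes tested 19.8% were below, and of genes clear of background 42.3%. Summed, the identity genes stood at 6064 to 6151 CPM in combination, 12011 to 12231 in anti-B7H3, 2005 to 2122 in anti-PD1 and 1285 to 1376 in isotype control. Apoe, a lipid carrier that macrophages make, among other cells, had 1388, 1351 and 1432 CPM in combination, 3093, 2926 and 3066 in anti-B7H3, 479, 451 and 471 in anti-PD1 and 274, 239 and 257 in isotype control, an interaction of -1.98 ± 0.08 (adjusted p = 2.12e-33, edgeR). C1qc, a chain of the complement component that macrophages secrete, gave -2.07 ± 0.10 with no overlap between groups.

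Genes of alternatively activated macrophages were below addition in 11 of 12, all 11 kept, with a median of -1.64. That share of 91.7% stands beside 19.8% of all genes tested and 42.3% of genes clear of background. Near background in isotype control were 4 of the 12. Chil3, a chitinase-like secreted protein, had 248, 254 and 253 CPM in combination against 1939, 2000 and 1961 in anti-B7H3, but 91.3, 82.6 and 84.0 in anti-PD1 against 81.4, 99.0 and 86.3 in isotype control. Combination was below anti-B7H3, while anti-PD1 and isotype control overlapped, and the interaction was -2.93 ± 0.11 (adjusted p = 2.47e-37, edgeR). Chil3 was also called lower in anti-PD1 than in isotype control with TMM over genes above background (log2 -0.40, adjusted p = 0.000489) and with background subtracted (-0.72, adjusted p = 1.48e-06), by less than between combination and anti-B7H3. Retnla, another secreted marker of this state, had the same form, with 77.8 to 89.6 CPM in combination, 426 to 467 in anti-B7H3, 42.4 to 57.5 in anti-PD1 and 25.5 to 60.4 in isotype control, and gave -2.72 ± 0.24.

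Genes of complement, chemokines, lysosomal proteases and Fc receptors, which macrophages express but not macrophages alone, were also below addition. Complement genes were below addition in 14 of 17 (11 kept, median -1.21), chemokines in 10 of 18 (7 kept, median -1.48), lysosomal proteases in 12 of 15 (all 12 kept, median -1.43) and IgG Fc receptor genes in 6 of 7 (4 kept, median -1.36), and none of these lists had a member above addition. These shares of 82.4%, 55.6%, 80% and 85.7% stand beside 19.8% of all genes tested and 42.3% of genes clear of background, and that of chemokines was the nearest to them. Isotype control was near background for 9 of 17 complement genes, 13 of 18 chemokines, 5 of 15 proteases and 3 of 7 Fc receptor genes. Of genes near background in 1 group or more, 11.5% were below. The protease median was -0.77 with background subtracted. C3, the central complement component, had 681, 660 and 649 CPM in combination, 3494, 3454 and 3406 in anti-B7H3, 97.9, 107 and 99.9 in anti-PD1 and 70.0, 84.7 and 85.4 in isotype control, where it was near background. Its interaction was -2.73 ± 0.11 (adjusted p = 4.33e-35, edgeR). Ccl8, a chemokine for monocytes and T cells, had 383, 390 and 390 CPM in combination, 1255, 1291 and 1281 in anti-B7H3, 68.0, 74.2 and 66.5 in anti-PD1 and 30.9, 23.5 and 29.7 in isotype control, and gave -3.02 ± 0.14. Ctss, a protease that trims the invariant chain, gave -1.98 ± 0.09, and Fcgr3, an activating Fc receptor, gave -1.52 ± 0.15.

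**Figure D3:**
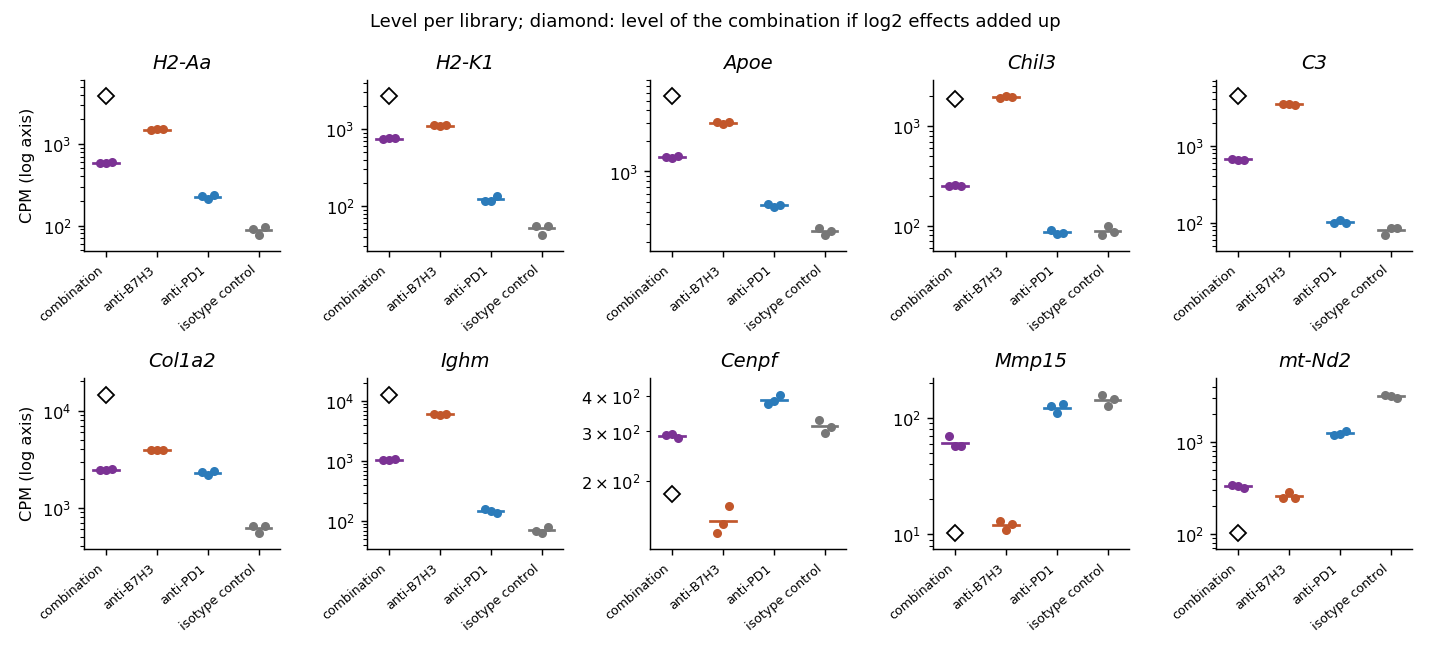
Level of 10 genes in CPM (log axis) in each of the 12 libraries, with bars at group means and an open diamond at the level combination would have if log2 effects added up. For the first 7 genes the combination libraries lie below the diamond (H2-Aa 576 to 599 against 3828 CPM), and for Cenpf, Mmp15 and mt-Nd2 above it (mt-Nd2 313 to 344 against 103 CPM).

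Immunoglobulin genes held the lowest value among called genes clear of background with a mean of at least 20 CPM and no predicted or clone name. Ighm, the IgM heavy chain, had 1064, 1035 and 1077 CPM in combination, 6073, 6015 and 6024 in anti-B7H3, 161, 152 and 140 in anti-PD1 and 68.4, 64.3 and 79.6 in isotype control. Its interaction was -3.61 ± 0.11 (adjusted p = 8.28e-43, edgeR). Igkc, the kappa light chain, gave -2.90 ± 0.17, with combination at 260 to 275 CPM, anti-B7H3 at 1675 to 1731, anti-PD1 at 25.7 to 36.2 and isotype control at 20.1 to 30.9. Of 15 plasma cell genes, 11 (73.3%) were below addition (7 kept, median -2.01), beside 19.8% of all genes tested and 42.3% of genes clear of background. Isotype control was near background for 11 of the 15 and anti-PD1 for 7, and of genes near background in 1 group or more 11.5% were below. Ighg2b was above addition and not kept, with 31.5, 32.2 and 38.6 CPM in combination against 4.56, 5.02 and 5.11 in anti-B7H3. It was near background in anti-PD1 and isotype control. T, NK and B cell genes gave little to test. All 21 T cell genes were near background in isotype control and 20 in anti-PD1, and 1 (Cd6, 1.17) was called above addition, a call lost without combination library 1 (0.88, adjusted p = 0.0837). None of 11 NK genes was above and 2 below (Tyrobp and Fcgr3, which myeloid cells also express), and 1 of 10 B cell genes was above (Fcmr, near background in anti-PD1 and isotype control).

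Fibroblast and matrix genes were below addition as well, beside 19.8% of all genes tested and 42.3% of genes clear of background. Vessel genes were mixed. Of 15 endothelial genes, 4 (26.7%) were below and 1 above, with a median of 0.41 (-0.18 with background subtracted). Of 10 mural cell genes, 2 (20%) were below and 4 (40%, beside 22.4% of all genes tested) above, with a median of 0.60. Near background in isotype control were 14 of the 15 and 8 of the 10. Of 20 fibroblast and collagen genes, 18 (90%) were below and 1 above, 14 were kept, and the median was -1.41 (-0.83 with background subtracted). The 1 above was Fap (0.90), near background in anti-PD1 and isotype control, and its call was lost without isotype control library 2 (0.61, adjusted p = 0.116). Col1a2, a chain of type I collagen, had 2432, 2449 and 2490 CPM in combination, 3930, 3941 and 3976 in anti-B7H3, 2330, 2164 and 2367 in anti-PD1 and 652, 552 and 648 in isotype control. Each single antibody was far above isotype control while combination sat just above anti-PD1, and the interaction was -2.57 ± 0.08 (adjusted p = 1.26e-41, edgeR). Col12a1, a collagen of the fibril surface, had 444, 424 and 432 CPM in combination, below both anti-B7H3 (837 to 858) and anti-PD1 (766 to 795) and above isotype control (215 to 251), and gave -2.72 ± 0.08. Of 17 matrix metalloproteinase and inhibitor genes, 13 (76.5%) were below addition (10 kept). Isotype control was near background for 6 of these 17 and for 4 of the 20 fibroblast and collagen genes. Mmp15, a membrane-bound member, was above it at 2.57 ± 0.17 (adjusted p = 9.91e-23, edgeR), with 69.1, 56.8 and 57.4 CPM in combination, 12.99, 10.8 and 12.2 in anti-B7H3, 126, 109 and 131 in anti-PD1 and 158, 126 and 144 in isotype control. Its order of group means is that of the background, and the part of background in it was not tested.

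Genes of the cell's own machinery split. Cytosolic ribosomal protein genes were below addition in 25 of 26 (16 kept), a share of 96.2% beside 42.3% of genes clear of background. Their median was -1.05, against -0.73 with TMM over genes above background and -0.34 with background subtracted, and Rplp0, a stalk protein, gave -1.39 ± 0.08. Nuclear genes of oxidative phosphorylation were below in 19 of 24 (79.2%), but only 4 were kept. Mitochondrially encoded genes were above addition in 11 of 13, all 11 kept, with a median of 1.01 (1.76 with background subtracted). That share of 84.6% stands beside 12.4% of genes clear of background. For mt-Nd2, a subunit of complex I, combination had 344, 336 and 313 CPM, anti-B7H3 249, 285 and 248, anti-PD1 1185, 1223 and 1336 and isotype control 3277, 3200 and 3018. Its interaction was 1.69 ± 0.08 (adjusted p = 7.77e-30, edgeR), and its order of groups is that of the background. The part of background in it was not tested.

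Proliferation genes leaned above addition. Of 30, 12 (40%) were above, all kept, and 2 below (Mcm4 and Pcna, neither kept), with a median of 0.26 (0.72 with background subtracted). Of all genes tested 22.4% were above, and of genes clear of background 12.4%. The Mcm4 call was lost without isotype control library 2 (-0.38, adjusted p = 0.0720), and the Pcna call without library 2 (-0.41, adjusted p = 0.0526) or 3 (-0.31, adjusted p = 0.102). Cenpf, a kinetochore protein of mitosis, had 291, 293 and 283 CPM in combination, 131, 141 and 164 in anti-B7H3, 374, 385 and 405 in anti-PD1 and 330, 297 and 312 in isotype control. The gap between combination and anti-B7H3 (log2 0.99) was larger than that between anti-PD1 and isotype control (log2 0.31, but -0.06 with TMM over genes above background and -0.24 with background subtracted), and the interaction was 0.69 ± 0.09 (adjusted p = 1.40e-09, edgeR). Type I interferon genes were above addition in 12 of 24, 5 of them kept, and below in 3, none kept. The share above, 50%, stands beside 22.4% of all genes tested. Of the 24, 19 were near background in isotype control and 10 in anti-PD1, and the median of 0.62 became -0.05 with background subtracted. Ifit3, an antiviral effector, had 46.0, 47.6 and 50.4 CPM in combination, 18.5, 16.3 and 16.3 in anti-B7H3, 16.7, 26.7 and 29.5 in anti-PD1 and 35.8, 30.6 and 37.4 in isotype control, and gave 2.02 ± 0.24 (adjusted p = 3.69e-11, edgeR). Combination was above anti-B7H3 and anti-PD1 below isotype control, the reverse of the MHC class II pattern.

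The melanocyte lineage was weakly seen. Of 13 pigment and lineage genes, 6 (46.2%) were above addition (2 kept) and 1 below (Gpnmb, kept, which macrophages also express). Of all genes tested 22.4% were above, and of genes near background in 1 group or more 26.1%. Tyr, the enzyme of melanin synthesis, had 8.97, 7.98 and 10.6 CPM in combination, 0, 0.502 and 0.730 in anti-B7H3, 21.6 to 28.0 in anti-PD1 and 34.2, 16.3 and 25.9 in isotype control, near background in isotype control. Dct and Tyrp1, pigment enzymes, had 0 reads in anti-B7H3, and their counts in the other groups were near those expected at the Olfr density. In skeletal muscle genes, 17 of 18 (94.4%) were above addition (8 kept). Acta1, the actin of muscle fibres, had 824 reads in combination, 1 in anti-B7H3, 160 in anti-PD1 and 56 in isotype control, beside 2.27, 0.190, 17.9 and 23.7 expected from background. Myh4, a fast myosin, had 1373, 0, 187 and 99 reads beside 11.6, 0.977, 92.0 and 122 expected, so combination stood far above background and isotype control did not. Summed muscle levels were 1476 to 1528 CPM in combination, 92.4 to 104.6 in anti-B7H3, 1001 to 1033 in anti-PD1 and 1529 to 1697 in isotype control, with 17 of the 18 genes near background in isotype control. Keratinocyte genes were above addition in 10 of 16 (62.5%), with 1 kept, and 7 of the 16, among them Krt5, Krt14 and Krt1, had 0 reads in anti-B7H3. With each group at 3 reads or fewer set to a floor of 3 reads, the list median was 5.82 for muscle in place of 6.66 and 2.14 for keratinocytes in place of 3.57.

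**Figure D4:**
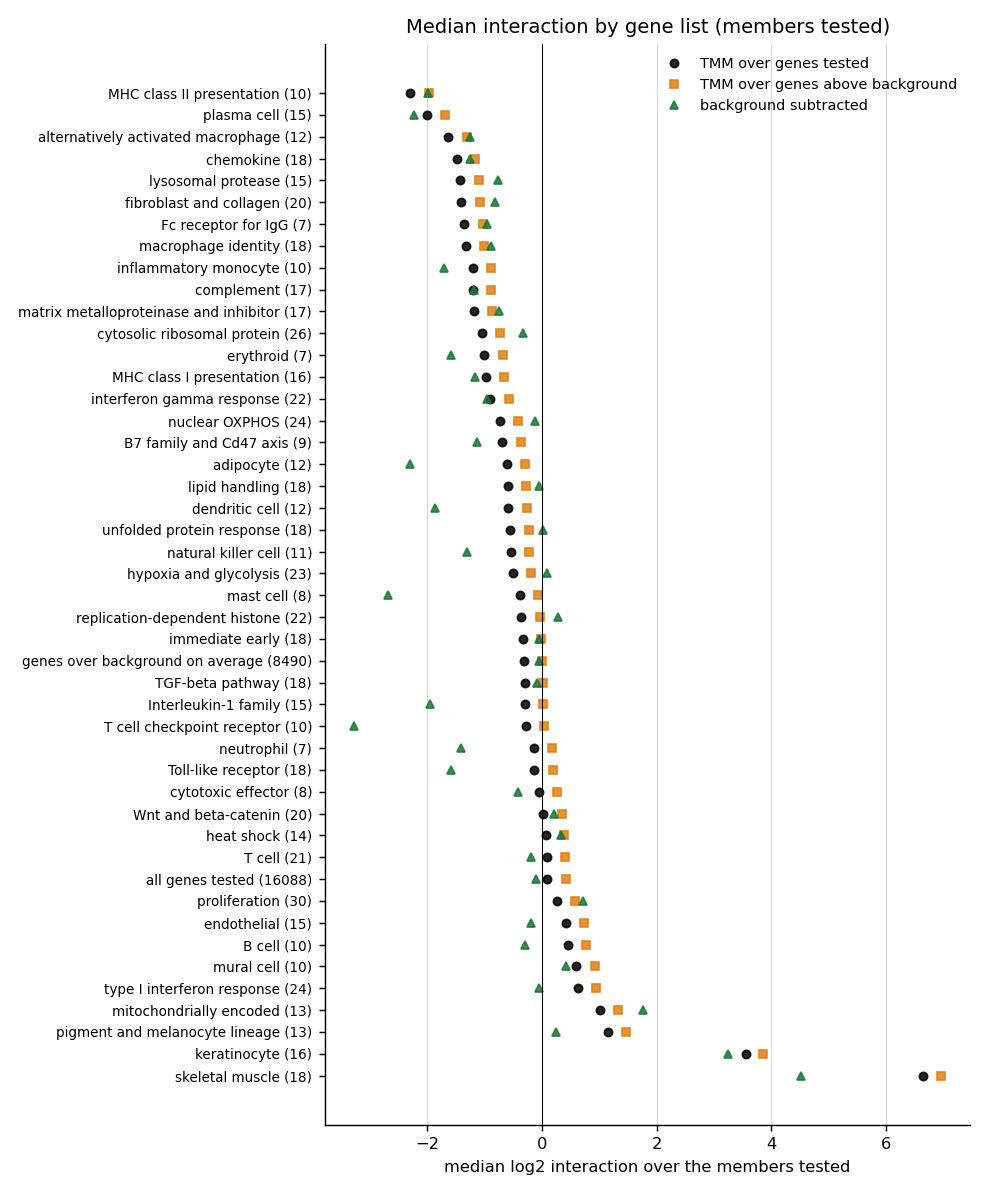
Median log2 interaction of each gene list over its tested members (number in brackets), with TMM over genes tested (circles), TMM over genes above background (squares) and the expected background subtracted as well (triangles). MHC class II lies near -2 with all 3 treatments, while lists near the middle, such as T cell checkpoint receptors, move by more than 1 when background is subtracted.

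Among genes clear of background with a mean of at least 20 CPM and no predicted or clone name, the 10 largest positive interactions were of another kind. Predicted genes left out by that limit, such as Gm17402 at 8.75, lay among them or higher. The 10 were Olfr93, Ube2u, Rhox8, Cfap46, Wdr66, Atp2b4, Vmn2r114, Ttbk1, Mroh2a and Rnf214, with log2 values of 4.48 to 7.41, and none belongs to a list above. All 10 had the order of the background, with isotype control highest, then anti-PD1, combination and anti-B7H3, and no overlap between groups. For Olfr93 that order is partly its own, as its reads enter the Olfr density. Rhox8, a homeobox gene of the reproductive tract, had 1227, 1274 and 1255 CPM in combination, 38.7, 58.0 and 47.2 in anti-B7H3, 7645, 8663 and 6938 in anti-PD1 and 18191, 30423 and 27939 in isotype control. For Atp2b4, a calcium pump gene, 1 transcript with 243 bases held 6696 reads in combination, 148 in anti-B7H3, 27238 in anti-PD1 and 32522 in isotype control, while its other 4 transcripts held 786, 719, 173 and 114. Of the 10 genes, 6 hold a tandem repeat of at least 24 bases made of A and G, or of C and T, in the coding sequence of the transcript with most reads, against 0.411% of genes tested and 0 of the 10 largest negative genes.

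The repeats of those 6 genes are shown because they are what the genes share. Each is printed 5′ to 3′ on the coding strand from the GENCODE M21 transcripts of GRCm38, with the repeat in capitals and up to 15 bases on each side.
Olfr93: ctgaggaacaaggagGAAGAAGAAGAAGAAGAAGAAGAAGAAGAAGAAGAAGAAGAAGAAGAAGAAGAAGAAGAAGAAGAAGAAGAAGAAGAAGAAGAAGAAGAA
Ube2u: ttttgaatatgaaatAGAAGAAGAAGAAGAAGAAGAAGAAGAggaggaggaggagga
Rhox8: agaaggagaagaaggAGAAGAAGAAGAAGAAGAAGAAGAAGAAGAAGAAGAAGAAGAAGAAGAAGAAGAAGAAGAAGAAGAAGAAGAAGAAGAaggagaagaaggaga
Wdr66: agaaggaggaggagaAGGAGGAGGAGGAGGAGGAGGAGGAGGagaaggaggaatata
Atp2b4: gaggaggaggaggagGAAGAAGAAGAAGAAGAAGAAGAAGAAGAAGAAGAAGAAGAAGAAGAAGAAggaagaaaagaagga
Rnf214: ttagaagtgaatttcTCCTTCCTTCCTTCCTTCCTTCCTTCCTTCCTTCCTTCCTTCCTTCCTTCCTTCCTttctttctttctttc

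Over all genes clear of background, 29 hold such a repeat, of which 22 (75.9%) were above addition and 2 below, with a median of 3.09. In the 4289 with a shorter repeat or none, 504 (11.8%) were above and 1834 (42.8%) below, with a median of -0.31. The repeat length was chosen after the values were seen, and whether reads came from these genes or from like repeats elsewhere was not tested.

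**Figure D5:**
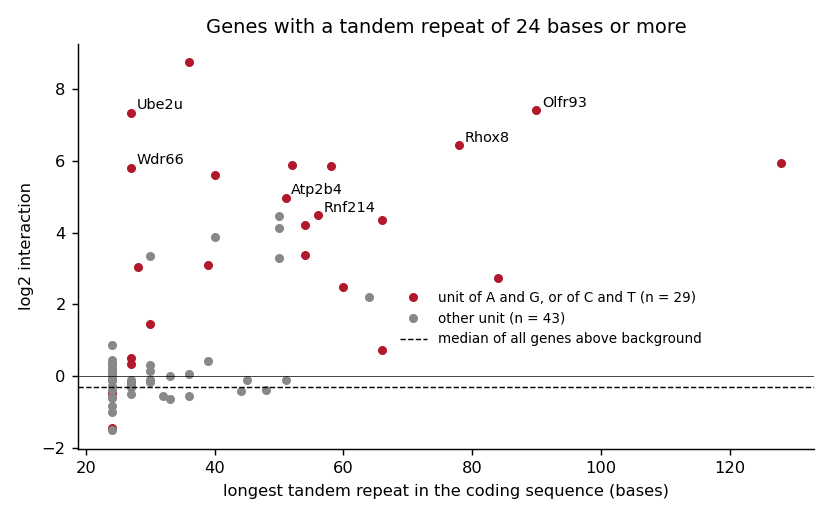
Log2 interaction against the length in bases of the longest tandem repeat in the coding sequence, for 72 genes clear of background with a repeat of 24 bases or more. Of 29 genes with a unit of A and G or of C and T, 18 reach a log2 interaction of 2 or more, and the dashed line marks the median of all genes clear of background at -0.31.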

How the data were processed

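Whole-tumour RNA of 12 samples (4 groups of 3) was read from 1 transcript table per sample. Per the file headers, the authors deposited estimated counts of reads per transcript beside lengths and TPM, and the estimated counts were used here, unscaled. FastQC 0.11.8 and build GRCm38 are named in the submitters' processing notes. The program that assigned reads and its strand setting are not given in the sources used here, so sense and antisense reads cannot be told apart. Of 58083 transcripts, 57473 matched GENCODE M21, and the 610 others took at most 0.415% of reads in a library. Of 57362 matched transcripts with a coding sequence in that annotation, 92.2% have a length equal to it with its stop codon, so lengths were taken as coding lengths. For the others this does not hold exactly.

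Estimated counts were summed per gene, 12 satellite-like genes were left out, and sums were rounded. All 12 libraries entered 1 fit with edgeR 4.0.16 in R 4.3.3 (TMM, filtering by expression, 1 mean per group, robust quasi-likelihood F test, Benjamini-Hochberg adjustment over 16088 genes, threshold 0.05). Levels are CPM over the TMM library sizes, and SE belongs to the fitted log2 value. Every adjusted p given beside an interaction comes from this fit unless another treatment is named. A floor of 3 reads over a group stands in for 3 reads or fewer. In simulated counts with known interactions, the fit on 15382 genes recovered 58 of 100 genes with a 2-fold and 89 of 100 with a 4-fold interaction, with 6 false calls. The simulation gave each gene 1 mean in all groups, held no background and changed only 200 genes, in combination. It therefore does not measure the error of calls in these data, where groups differ in background and in many genes.

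Libraries of 1 group lay closer to counting noise than libraries of different groups (median chi-square per gene 0.547 to 0.943 against 2.12 to 12.2), but mean chi-squares of 1.35 to 3.59 were above it. All were kept as separate samples, though these values cannot show whether the samples of a group came from separate mice. Precision follows from the reads behind a gene, and isotype control had the fewest reads outside satellite-like genes.

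Genes named were the targets and partners, the 10 called genes of largest interaction per direction clear of background (mean of at least 20 CPM, no predicted or clone name), at most 2 called genes in either direction from any of 44 lists (mean of at least 5 CPM), and 3 genes per direction that failed only for background. Some of these are named. The genes, lists and rules were chosen with earlier results of these data known. Alternatives were other scalings (DESeq2 1.42.0 size factors, upper quartile, TMM over genes above background), the DESeq2 Wald test (local dispersion fit), filters, background subtraction, satellite-like or mitochondrial genes kept or left out, an effective-length offset, a replicate block and leaving out each library. The alternative that joins background subtraction with the second scaling was chosen after seeing the data.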

Additional observations from a re-analysis of the deposited data

Results flagged for a closer look

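The interaction test is itself a test of whether the effect of anti-PD1 differs with and without anti-B7H3, and each gene it called is listed for that reason. It called 6797 genes, 3604 above 0 and 3193 below 0, by edgeR's quasi-likelihood test with Benjamini-Hochberg adjustment. Among targets and partners, the log2 interaction was -0.62 for Cd276, -1.91 for Pdcd1lg2, -1.22 for Cd47, -1.66 for Sirpa and -0.72 for Ctnnb1. Among genes clear of background with a mean of at least 20 CPM and no predicted or clone name, the largest positive values were 7.41 for Olfr93, 7.35 for Ube2u, 6.43 for Rhox8, 6.01 for Cfap46, 5.81 for Wdr66, 4.96 for Atp2b4, 4.91 for Vmn2r114, 4.83 for Ttbk1, 4.56 for Mroh2a and 4.48 for Rnf214. Most of these values rest on few reads in anti-B7H3. All libraries of that group together held 3 for Ube2u, 6 for Mroh2a, 8 each for Cfap46 and Ttbk1 and 12 for Wdr66. They held 22 for Olfr93 and 24 for Vmn2r114, against 595 for Rhox8, 780 for Rnf214 and 866 for Atp2b4. Under the same limits, the largest negative values were -3.61 for Ighm, -3.02 for Ccl8, -2.93 for Chil3, -2.90 for Igkc, -2.72 for Col12a1, -2.72 for Retnla, -2.70 for H2-Aa, -2.67 for H2-Eb1, -2.65 for Cd74 and -2.64 for H2-Ab1. In all 3 libraries per group, the 10 positive genes had the order of the background and the 10 negative genes had anti-B7H3 highest.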

How the results depend on the processing

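Interaction calls numbered 6797 (3604 above 0, 3193 below). Below-0 calls were 1541 with TMM over genes above background. With only genes above background fitted, calls were 2936 (1507 above, 1429 below), and simple effects gave 3732 for combination over anti-B7H3, 2171 for anti-PD1 over isotype control, 4130 for combination over anti-PD1 and 5128 for anti-B7H3 over isotype control, against 5777, 8566, 9084 and 11866. With background subtracted, the counts were 3804 (1701, 2103) and 3756, 3159, 4789 and 7201 in that order of contrasts. With that second scaling added, chosen after seeing the data, they were 3775 (1769, 2006) and 3777, 3114, 4791 and 7161. With satellite-like genes kept, anti-PD1 over isotype control gave 5164. At an adjusted p under 0.01, 2391 lay above 0, and calls of at least 2-fold were 4024, with 1015 below 0. For these counts the cause of the shift was not tested, except that some alternatives tested fewer genes than 16088. These were 8490 where only genes above background were fitted, 12636 with background subtracted under either scaling and 13478 with satellite-like genes kept. Without 1 library, interaction calls were 6282 to 7085 (3076 to 3649 above, 2947 to 3436 below), with simple effects of 4667 to 5932 (combination over anti-B7H3), 7592 to 9709 (anti-PD1 over isotype control), 8870 to 9869 (combination over anti-PD1) and 11729 to 13333 (anti-B7H3 over isotype control).

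With a replicate block, interaction calls were 6628 (3470 above, 3158 below). Same-numbered libraries of different groups did not deviate together (correlations of -0.132 to 0.0906 over 18 pairs, against -0.098 to 0.147 over 36 differently numbered pairs). Deviations within groups were small (median chi-square 0.547 to 0.943), so these correlations cannot show whether same-numbered samples shared a batch. Of 124 genes named by rule, 4 turned sign with background subtracted, and again with the second scaling: Hsp90ab1 to 0.095 and 0.12, Il18r1 to -0.12 and -0.13, Pcna to 0.15 and 0.17, and Pdcd1 to -3.27 and -3.28, none of these called. Outside leave-one-out, 26 genes lost their call in 1 alternative or more, and 13 did without 1 library, Cd276 among them without isotype control library 2 or 3. Depth limits what can be said of T cell genes and Pdcd1.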

Other observations

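Globin and immune-regulatory genes not described above also departed from addition. Hba-a1, an alpha globin of red cells, had 24.9, 26.7 and 26.0 CPM in combination, 39.2, 33.4 and 28.7 in anti-B7H3, 116, 84.8 and 89.0 in anti-PD1 and 38.2, 24.5 and 19.2 in isotype control, with every anti-PD1 library above all others (interaction -2.18 ± 0.24, adjusted p = 1.44e-08, edgeR, kept). Hbb-bs, a beta globin, had the same form at -1.49 ± 0.21, with 72.3 to 77.8 CPM in anti-PD1 and 21.4 to 37.4 in isotype control. Il1rap, the shared co-receptor of the interleukin-1 family, was above addition at 1.10 ± 0.12 (kept), with 131 to 142 CPM in combination, 57.9 to 64.7 in anti-B7H3, 130 to 147 in anti-PD1 and 115 to 146 in isotype control, with every anti-B7H3 library below all others. Tnfrsf9, a costimulatory receptor of activated T cells, was below addition at -1.98 ± 0.37 (kept), with 24.3, 27.6 and 24.2 CPM in combination, 38.5, 29.6 and 33.3 in anti-B7H3, 12.2, 15.7 and 15.9 in anti-PD1 and 4.88, 2.04 and 7.68 in isotype control, the last near background.

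Lpin1, a phosphatase of lipid synthesis, had 419 reads in combination, 613 in anti-B7H3 and 363 in anti-PD1, and 0 in isotype control. The Olfr density would give 58.0 reads there, so it does not hold for this gene either. Near-background calls, background subtraction and the kept label all use that density for every gene.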
